A study of Mus musculus with 12 samples.

Results

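Constitutive cytochrome P450s are those that mouse liver expresses without an inducing drug, and 10 of them are described here. The genes were chosen by name from the symbols of the deposited transformed values and joined by Ensembl identifier to the deposited counts. They were Cyp1a2, Cyp2d9, Cyp2d10, Cyp2d22, Cyp2d26, Cyp2d40, Cyp2j5, Cyp2f2, Cyp4f14 and Cyp4v3, which made 10 of the 51912 genes of the count table. All 10 passed the filter on low counts that left 8594 genes, and they were among 52 P450 genes that passed it, of 81 with a count in some library. The filter used the counts of all 12 libraries.

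Liver RNA of adult male mice was sequenced from the 3' ends of messenger RNA in 12 libraries, 3 mice in each of 4 groups. CITCO, an agonist of human CAR, was injected daily for 4 days at the labelled dose of 10 mg/kg, and the mice were killed on day 5. The paper cites work in vitro which proposes that CITCO also activates human PXR. Wild-type (WT) mice, with mouse CAR and PXR, received either corn oil, the vehicle, or CITCO. The hCAR/hPXR mice carried human CAR and PXR in place of the mouse receptors and received CITCO, and the Car KO/hPXR mice lacked Car, carried human PXR and also received CITCO. The methods give a C57BL/6NTac background for deleted and humanised mice and name none for the WT mice. Corn oil libraries came from WT mice alone, so a response of either humanised genotype to CITCO cannot be told apart from the genotype.

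P450s are heme enzymes that take electrons from P450 oxidoreductase and oxidise drugs, steroids and fatty acids. CAR and PXR are nuclear receptors that sense foreign compounds and induce genes such as Cyp2b10 and Cyp3a11. Constitutive P450s are kept on in hepatocytes by liver transcription factors, and some of them also depend on the position of the cell in the liver lobule or on growth hormone.

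The targeted receptor genes were read first, in counts. Nr1i2, which encodes mouse PXR, had 199, 100 and 155 counts in WT mice given corn oil, 114, 113 and 126 in WT mice given CITCO, 0, 1 and 0 in hCAR/hPXR mice and 2, 0 and 0 in Car KO/hPXR mice. Nr1i3, which encodes mouse CAR, had 287, 104 and 215 counts, then 184, 116 and 207, then 2, 0 and 6, and then 3, 2 and 5 in the same order of groups. Both mouse genes were near 0 in every library of the humanised genotypes, and the human receptors were not in the mouse annotation. The liver label was checked on 8 hepatocyte markers, all 8 of which were tested, with Trf the most abundant. Their summed level was 54080 ± 4250 CPM (counts scaled to library size, mean ± SD, n = 3) with corn oil, 57170 ± 4650 in WT mice given CITCO, 50650 ± 9840 in hCAR/hPXR mice and 51210 ± 2640 in Car KO/hPXR mice. Replicates 1 and 2 of hCAR/hPXR were under all other libraries, down to 44560 CPM, and replicate 3 was the highest, at 62000. In bulk RNA, fewer cells of a type and less RNA per cell cannot be told apart.

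Together the 10 members took 5847 ± 182 CPM (SD, n = 3) in WT mice given corn oil and 6019 ± 511 in WT mice given CITCO. Their sum was 5158 ± 527 CPM in hCAR/hPXR mice and 6193 ± 679 in Car KO/hPXR mice. Library sizes were scaled by the TMM method of edgeR. At totals of 1167027 to 2341572 counts a library, the floor of 3 counts corresponded to between 1.34 and 2.5 CPM, and every member stood above it in every library.

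**Figure D1:**
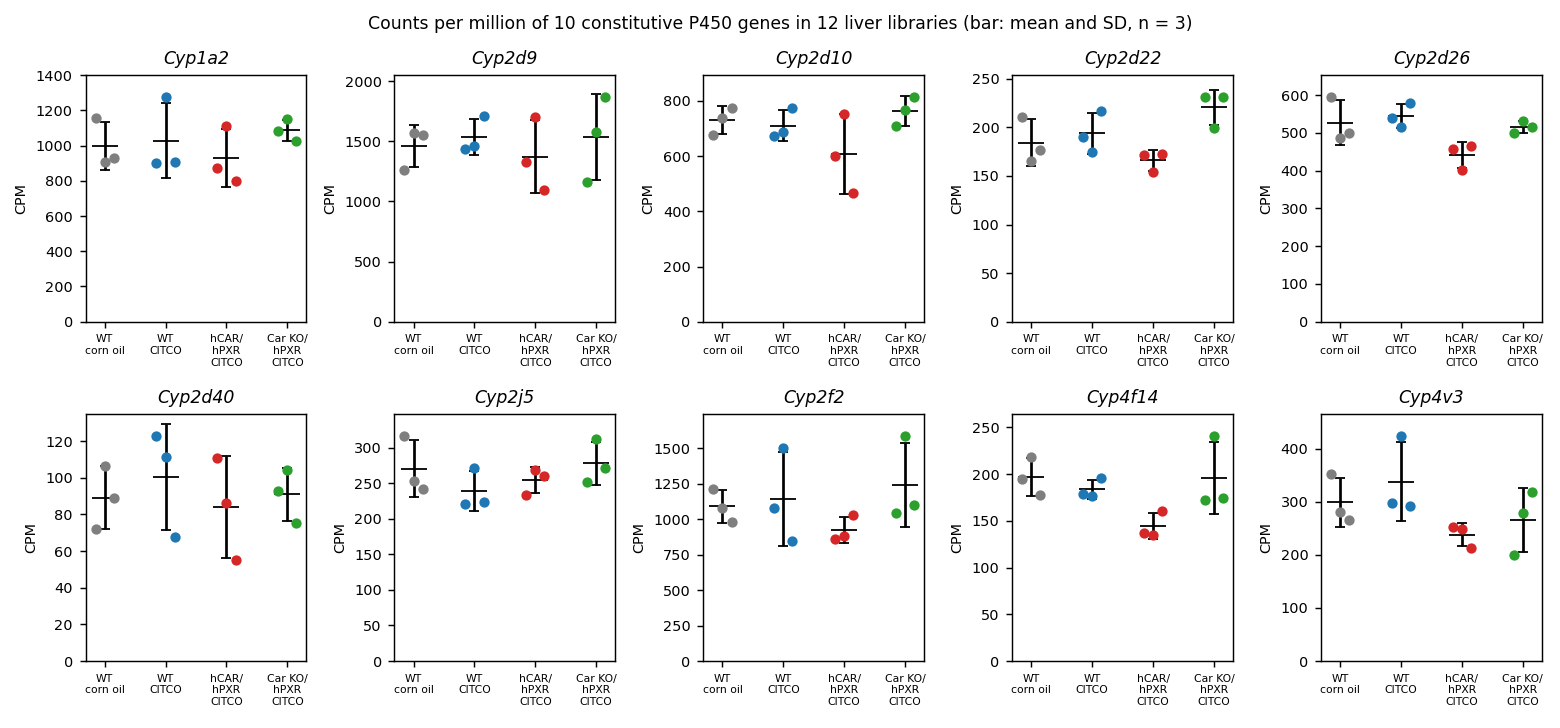
Each panel plots the CPM of 1 member (vertical axis, from 0) in the 12 libraries, with points for libraries and bars for the mean and SD of 3 mice in each of the 4 groups, in the order used in the text. The hCAR/hPXR points of Cyp2d26 and Cyp4f14 lie under all other points, while for Cyp1a2 and Cyp2d9 the groups overlap.

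The Cyp2d genes are the mouse relatives of human CYP2D6, an enzyme that oxidises many basic drugs, and the 5 members of this subfamily form a cluster. On GRCm38 they lay in the order Cyp2d22, Cyp2d10, Cyp2d9, Cyp2d40 and Cyp2d26 within chr15:82370527-82794294, a span of 423.8 kb. Cyp2d9 (ENSMUSG00000068086, chr15:82433437-82456845) was on the plus strand, and the others were on the minus strand. Those were Cyp2d22 (ENSMUSG00000061740, chr15:82370527-82380260), Cyp2d10 (ENSMUSG00000094806, chr15:82402846-82407195), Cyp2d40 (ENSMUSG00000068083, chr15:82759833-82764183) and Cyp2d26 (ENSMUSG00000022445, chr15:82790101-82794294). Positions are from GENCODE M21, another release than the annotation the authors used.

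Cyp2d9 and Cyp2d10 had the highest correlation of any pair of members over the libraries, so the sequences at their starts are shown with those of Cyp2d40 and Cyp2d26. RefSeq windows on GRCm38.p6, from 250 bases before to 50 bases after the start of a gene, matched 9 of the 10 members, and Cyp2d22 had none. The start is that of RefSeq, which for Cyp2d9 lies well inside the GENCODE interval given above, so the annotations place it differently. For Cyp2d40 and Cyp2d26 it also lies inside that interval, nearer its end. Each sequence runs 5' to 3' on the strand of its gene. Cyp2d9 is from chr15:82452127-82452426 on the plus strand, and Cyp2d10 (chr15:82407145-82407444), Cyp2d40 (chr15:82764073-82764372) and Cyp2d26 (chr15:82794196-82794495) are from the minus strand. Capitals mark the longest run that Cyp2d9, Cyp2d10 and Cyp2d40 share, CAGAGGACAAAGGGCAACC, and the letters TATAAG. In Cyp2d26, which lacks that run, they mark CAAAG and TATAAG.
Cyp2d9: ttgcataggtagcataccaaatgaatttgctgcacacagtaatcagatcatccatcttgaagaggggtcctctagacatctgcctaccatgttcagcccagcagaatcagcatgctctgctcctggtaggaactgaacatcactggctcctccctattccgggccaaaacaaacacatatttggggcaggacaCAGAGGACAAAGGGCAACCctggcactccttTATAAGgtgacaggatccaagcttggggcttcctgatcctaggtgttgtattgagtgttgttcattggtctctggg
Cyp2d10: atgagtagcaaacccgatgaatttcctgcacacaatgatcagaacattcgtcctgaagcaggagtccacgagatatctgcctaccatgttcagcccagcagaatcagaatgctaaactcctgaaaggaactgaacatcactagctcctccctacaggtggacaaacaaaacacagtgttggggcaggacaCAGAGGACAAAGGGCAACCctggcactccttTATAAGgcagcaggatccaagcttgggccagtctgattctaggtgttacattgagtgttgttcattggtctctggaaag
Cyp2d40: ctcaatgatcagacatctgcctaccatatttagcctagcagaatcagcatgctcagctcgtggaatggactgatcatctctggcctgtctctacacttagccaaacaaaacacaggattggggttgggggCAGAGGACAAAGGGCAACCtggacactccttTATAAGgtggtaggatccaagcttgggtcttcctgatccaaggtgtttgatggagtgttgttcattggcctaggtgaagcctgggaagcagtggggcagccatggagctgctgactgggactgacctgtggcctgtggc
Cyp2d26: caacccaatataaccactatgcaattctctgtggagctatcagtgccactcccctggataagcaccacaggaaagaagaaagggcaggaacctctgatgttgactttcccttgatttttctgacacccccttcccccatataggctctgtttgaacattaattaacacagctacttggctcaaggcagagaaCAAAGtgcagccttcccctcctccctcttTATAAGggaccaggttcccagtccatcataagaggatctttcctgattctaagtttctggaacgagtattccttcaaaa

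The shared run of 19 bases began 57 bases before the start in Cyp2d9, 60 before it in Cyp2d10 and 120 before it in Cyp2d40. Searched on both strands, it was in 3 of 32851 windows (0.00913%), those of these 3 genes. TATAAG was in 2442 windows (7.43%), among them 5 members, and began 26, 29, 89 and 29 bases before the start in Cyp2d9, Cyp2d10, Cyp2d40 and Cyp2d26. CAAAG, which also lies within the run of 19 bases, was in 17718 windows (53.9%) and in 7 members. Aligned without gaps, the windows of Cyp2d9 and Cyp2d10 were identical at 74.7% of 297 bases, with 51 bases as their longest shared run. Identity was 77.6% over 237 bases between Cyp2d9 and Cyp2d40 and 75.8% over 240 between Cyp2d10 and Cyp2d40. These 2 alignments had shifts of -63 and -60 bases, against -3 between Cyp2d9 and Cyp2d10. Distances from the start in Cyp2d40 therefore depend on where its start was annotated. With the window of Cyp2d26, it was between 31.1% and 33.3%. Such matches describe the letters of the windows and show no binding site.

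Reads of the Cyp2d genes could not all be assigned to 1 gene. Among 50-base windows of the last 500 bases of the transcripts of Cyp2d10, 34.6% also occurred in another gene. The share was 29.1% for Cyp2d9, 27.1% for Cyp2d40, 8.57% for Cyp2d26 and 7.95% for Cyp2d22. Cyp2d9 also overlapped exons of Gm46501 and Gm27622, and Cyp2d10 those of Gm27331. RSEM divides such reads between genes, and the expected counts of Cyp2d9, Cyp2d22 and Cyp2d40 were not whole numbers in any library, so values of single Cyp2d genes carry that uncertainty.

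Cyp2d9, a testosterone hydroxylase of male mouse liver, was at 1261, 1571 and 1550 CPM in WT mice given corn oil and 1437, 1462 and 1710 in WT mice given CITCO. It was at 1329, 1698 and 1091 CPM in hCAR/hPXR mice and 1159, 1576 and 1868 in Car KO/hPXR mice. The 4 groups overlapped throughout, and the Car KO/hPXR libraries held both the highest value and the next to lowest. Cyp2d10 was at 675, 738 and 775 CPM with corn oil, 672, 686 and 774 in WT mice given CITCO, 602, 754 and 465 in hCAR/hPXR mice and 708, 767 and 814 in Car KO/hPXR mice. Replicates 1 and 3 of hCAR/hPXR were under the other 10 libraries for Cyp2d10, while replicate 2 was among them.

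Cyp2d22 was at 211, 165 and 177 CPM with corn oil, 190, 175 and 217 in WT mice given CITCO, 172, 154 and 173 in hCAR/hPXR mice and 231, 200 and 231 in Car KO/hPXR mice. For Cyp2d22 the hCAR/hPXR libraries were under those of both other CITCO groups and overlapped the corn oil libraries. Cyp2d26 was at 595, 487 and 500 CPM with corn oil, 538, 517 and 580 in WT mice given CITCO, 458, 401 and 466 in hCAR/hPXR mice and 499, 533 and 516 in Car KO/hPXR mice. All 3 hCAR/hPXR libraries were under the 9 other libraries for Cyp2d26, and the 3 other groups overlapped each other. Cyp2d40 ranged from 55.1 CPM in hCAR/hPXR replicate 3 to 123 in replicate 1 of WT mice given CITCO, with counts from 66 to 214. This was the widest range among the members, a ratio of 2.23, and all groups overlapped for Cyp2d40.

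The share of each gene in the counts of the subfamily varied between libraries. Cyp2d9 took between 43.1% and 54.8% of all Cyp2d counts of a library, Cyp2d10 between 20.7% and 26.3%, Cyp2d26 between 12.9% and 21.1%, Cyp2d22 between 4.97% and 8.60% and Cyp2d40 between 2.02% and 4.15%. These are shares of counts, not of molecules. The ratio of Cyp2d9 to Cyp2d10 counts lay between 1.64, in Car KO/hPXR replicate 1, and 2.35, in hCAR/hPXR replicate 3. Of the other Cyp2d genes, Cyp2d12 had at most 6 counts in a library, Cyp2d37-ps at most 3, Cyp2d11 and Cyp2d41-ps at most 1, and Cyp2d34 had 0 in all libraries.

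**Figure D2:**
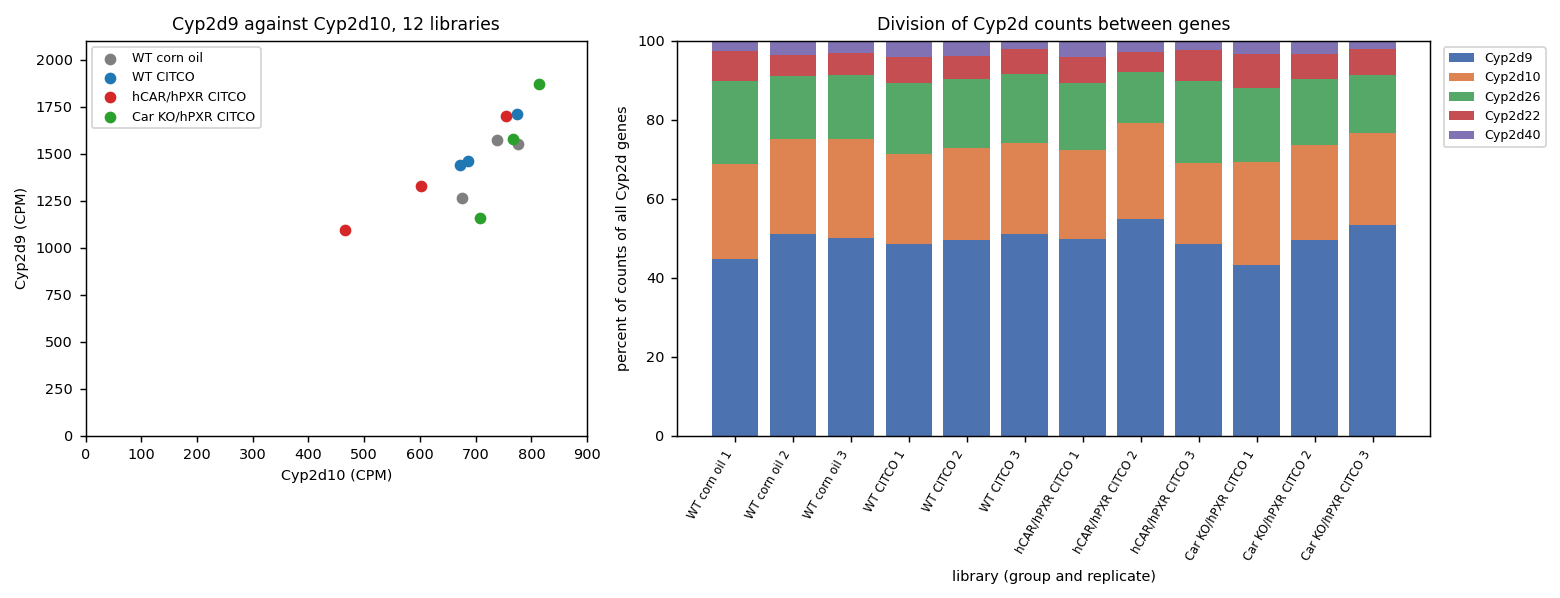
The left panel plots the CPM of Cyp2d9 (vertical axis) against that of Cyp2d10 (horizontal axis), 1 point for each of 12 libraries coloured by group. The right panel stacks the percent of all Cyp2d counts that each of the 5 members took in each library, with Cyp2d9 between 43.1% and 54.8%.

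Cyp2d counts were also summed in each library, a value that does not depend on how reads were divided within the subfamily. The sum was 2994 ± 153 CPM (SD, n = 3) with corn oil, 3088 ± 228 in WT mice given CITCO, 2673 ± 424 in hCAR/hPXR mice and 3125 ± 412 in Car KO/hPXR mice. Against WT mice given CITCO, its log2 fold change was -0.21 in hCAR/hPXR mice (95% interval -0.58 to 0.16) and 0.02 in Car KO/hPXR mice (-0.35 to 0.38). In hCAR/hPXR against Car KO/hPXR mice it was -0.23 (-0.59 to 0.14), and between WT mice given CITCO and corn oil 0.04 (-0.32 to 0.41). The summed Cyp2d counts passed the test in none of the 4 comparisons, with adjusted p-values of 0.789, 0.988, 0.724 and 0.964 in edgeR in the order just given. Leaving out 1 library gave -0.33 to -0.10 for the sum in hCAR/hPXR mice against WT mice given CITCO, and -0.35 to -0.12 against Car KO/hPXR mice.

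Cyp1a2 (ENSMUSG00000032310, chr9:57676937-57683703, minus strand) encodes the enzyme that demethylates caffeine. It is expressed by hepatocytes around the central vein and is induced through the aryl hydrocarbon receptor. Cyp1a2 was at 1154, 906 and 931 CPM in WT mice given corn oil and 904, 1276 and 907 in WT mice given CITCO. It was at 873, 1112 and 799 CPM in hCAR/hPXR mice and 1081, 1151 and 1029 in Car KO/hPXR mice. All 4 groups overlapped, with the highest library in WT CITCO and the lowest in hCAR/hPXR. The log2 fold change of Cyp1a2 was -0.15 (95% interval -0.53 to 0.23) between hCAR/hPXR mice and WT mice given CITCO. It was 0.04 (-0.34 to 0.42) between CITCO and corn oil in WT mice, and 0.02 in the former comparison without WT CITCO replicate 2. Its estimates were whole numbers in every library, and no window of its transcript ends occurred in another gene.

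Cyp1a1 and Cyp1b1, the other genes of this family, had at most 2 counts in any library. Of 12 genes of the aryl hydrocarbon receptor pathway, Cyp1a2 included, 7 were tested. By edgeR and by DESeq2 0 were called in any of the 4 comparisons, and limma called 1, Gsta1, named after its values were seen, in each comparison of hCAR/hPXR mice with another CITCO group. By each tool 2 had an unadjusted p under 0.05 between hCAR/hPXR mice and WT mice given CITCO. Of all genes tested by edgeR, 8.81% had such a p. The 7 tested genes of the pathway are meant in what follows. Their median log2 fold change there was 0.32, against 0.01 for all genes tested. Ahr itself was at 32.5 ± 4.86 CPM (SD, n = 3) in hCAR/hPXR mice and 17.9 ± 1.46 in WT mice given CITCO, and did not pass the test.

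Cyp2f2 (ENSMUSG00000052974, chr7:27119909-27133660, plus strand), which oxidises naphthalene, marks hepatocytes near the portal vein. Cyp2f2 was at 1216, 1077 and 983 CPM with corn oil, 1079, 1503 and 847 in WT mice given CITCO, 863, 881 and 1027 in hCAR/hPXR mice and 1041, 1585 and 1099 in Car KO/hPXR mice. The hCAR/hPXR libraries of Cyp2f2 were under all Car KO/hPXR libraries and lay among the WT ones. Gm15883 on the other strand overlapped its exons. The log2 fold change of Cyp2f2 was -0.43 (95% interval -0.87 to 0.01) in hCAR/hPXR against Car KO/hPXR mice, with an adjusted p of 0.484 in edgeR.

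Cyp2j5 (ENSMUSG00000052520, chr4:96628773-96664154, minus strand) forms epoxides of arachidonic acid. Cyp2j5 was at 316, 253 and 242 CPM with corn oil, 221, 271 and 224 in WT mice given CITCO, 234, 269 and 259 in hCAR/hPXR mice and 252, 311 and 271 in Car KO/hPXR mice. The groups overlapped, and the ratio of the highest to the lowest library was 1.43, the smallest among the members. Cyp2j5 was the member whose lowest group mean was in WT mice given CITCO, at 239 ± 28.1 CPM (SD, n = 3), rather than in hCAR/hPXR mice.

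Cyp4f14 (ENSMUSG00000024292, chr17:32905070-32917342, minus strand) hydroxylates the terminal carbon of leukotrienes. Cyp4f14 was at 195, 219 and 178 CPM with corn oil, 179, 177 and 196 in WT mice given CITCO, 137, 135 and 160 in hCAR/hPXR mice and 173, 241 and 174 in Car KO/hPXR mice. All 3 hCAR/hPXR libraries were under the 9 other libraries for Cyp4f14. Cyp4v3 (ENSMUSG00000079057, chr8:45304944-45333216, minus strand), the mouse relative of human CYP4V2, hydroxylates fatty acids. Cyp4v3 was at 352, 281 and 265 CPM with corn oil, 297, 423 and 293 in WT mice given CITCO, 252, 248 and 213 in hCAR/hPXR mice and 199, 280 and 318 in Car KO/hPXR mice. The hCAR/hPXR libraries of Cyp4v3 were under both WT groups, and the lowest library was replicate 1 of Car KO/hPXR. Gm45753 on the same strand overlapped exons of Cyp4v3.

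The comparison of hCAR/hPXR mice with WT mice given CITCO asks how livers with human CAR and PXR differ from those with the mouse receptors under the same drug. A gene was called at an adjusted p under 0.05 with a fold change over 1.5. By edgeR 0 of 10 members were called, where 0.407% of the genes tested were. DESeq2 and limma also called 0, and 3 members had an unadjusted p under 0.05 by each of the 3 tools, Cyp2d26, Cyp4f14 and Cyp4v3, against 8.81% of the genes tested by edgeR. In edgeR this count fell to 1, Cyp4v3, with upper quartile scaling, with no filter, and without replicate 1 of WT CITCO or of hCAR/hPXR. It was 2 with the replicate block, with only the 6 libraries compared and without any 1 of the other 4 libraries of these groups. Without WT CITCO replicate 3 the 2 were Cyp2f2 and Cyp4v3, and without hCAR/hPXR replicate 2 they were Cyp2d10 and Cyp4v3. The libraries of the groups did not overlap for 4 members, Cyp2d22, Cyp2d26, Cyp4f14 and Cyp4v3, all lower in hCAR/hPXR mice, where 13.6% of the genes tested did not overlap in either direction. With 10 members this is a small count, and no test of the list was made.

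Lower estimates in hCAR/hPXR mice than in WT mice given CITCO were found for 9 members, and Cyp2j5 was higher. The median log2 fold change of the members was -0.24, against 0.01 for all genes tested, of which 48.4% were lower. It was -0.16 without hCAR/hPXR replicate 3 and -0.29 without replicate 2, and 8 members were lower without WT CITCO replicate 2. Cyp4v3 had the lowest value, -0.50 (95% interval -0.91 to -0.10), with an adjusted p of 0.423 in edgeR. Without WT CITCO replicate 2 it was at -0.33, nearer 0 than Cyp4f14 and Cyp2d26. The unadjusted p of Cyp4v3 in edgeR was over 0.05 without that library and without hCAR/hPXR replicate 3. For Cyp4f14 the log2 fold change was -0.35 (-0.69 to -0.02) with an adjusted p of 0.543 in edgeR. For Cyp2d26 it was -0.30 (-0.60 to -0.0053) with an adjusted p of 0.559 in edgeR. These intervals are not adjusted for the number of genes. Among the others, Cyp2f2 had a log2 fold change of -0.31 (-0.75 to 0.13) and Cyp2d10 of -0.23 (-0.58 to 0.13). For Cyp2d22 it was -0.22 (-0.54 to 0.09), for Cyp2d40 -0.24 (-0.76 to 0.28) and for Cyp2d9 -0.16 (-0.58 to 0.26). Cyp2j5 had 0.09 (-0.24 to 0.41). Leaving out 1 library gave ranges of -0.49 to -0.078 for Cyp2f2, -0.42 to -0.072 for Cyp2d10 and -0.31 to -0.14 for Cyp2d22. The ranges were -0.51 to -0.033 for Cyp2d40, -0.35 to -0.025 for Cyp2d9 and 0.034 to 0.17 for Cyp2j5.

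These differences were not shown to be absent, since the intervals reached as far as a 1.87-fold difference. For 5 members, the whole interval lay within 1.5-fold in either direction. Of 12 genes listed as induced through CAR and PXR, 11 were tested. In hCAR/hPXR mice edgeR called 8 higher and 0 lower, with a median log2 fold change of 2.02. By limma the same 8 were called, while DESeq2 called 7 of them and Ugt1a1 in place of Cyp2c55. The paper had reported all of these but Cyp2c55 as higher from these libraries, so the calls are not independent of that report. Ugt1a1 had counts of 0 in some libraries of every group, and DESeq2 also called it lower with CITCO than with corn oil in WT mice. Cyp2b10 was at 155 CPM on average in hCAR/hPXR mice and 2.28 in WT mice given CITCO (log2 fold change 6.05, adjusted p 4.75e-08), and Cyp3a11 at 3628 and 896 (2.02, adjusted p 0.000404). Cyp2b10, Cyp2c29, Cyp3a11 and Gstm3 passed under all 16 alternatives. Without WT CITCO replicate 1, the calls of Cyp2c55, Cyp3a25, Cyp3a59 and Ces2a were lost, which left 4 of the 8. Leaving out replicate 2 or 3 of WT CITCO or replicate 2 of hCAR/hPXR left 5. Cyp3a11 was at 1777 CPM on average in Car KO/hPXR mice. In Car KO/hPXR mice against WT mice given CITCO the list median was 0.56. There edgeR and limma called 0, and DESeq2 called Cyp3a11, Cyp3a25 and Ugt1a1 higher. In edgeR 6 had an unadjusted p under 0.05, against 9.30% of the genes tested. In hCAR/hPXR against Car KO/hPXR mice the median was 0.73, and edgeR called Cyp2b10, Cyp2c29 and Cyp2c55 higher. DESeq2 called 5 there and limma 4.

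**Figure D3:**
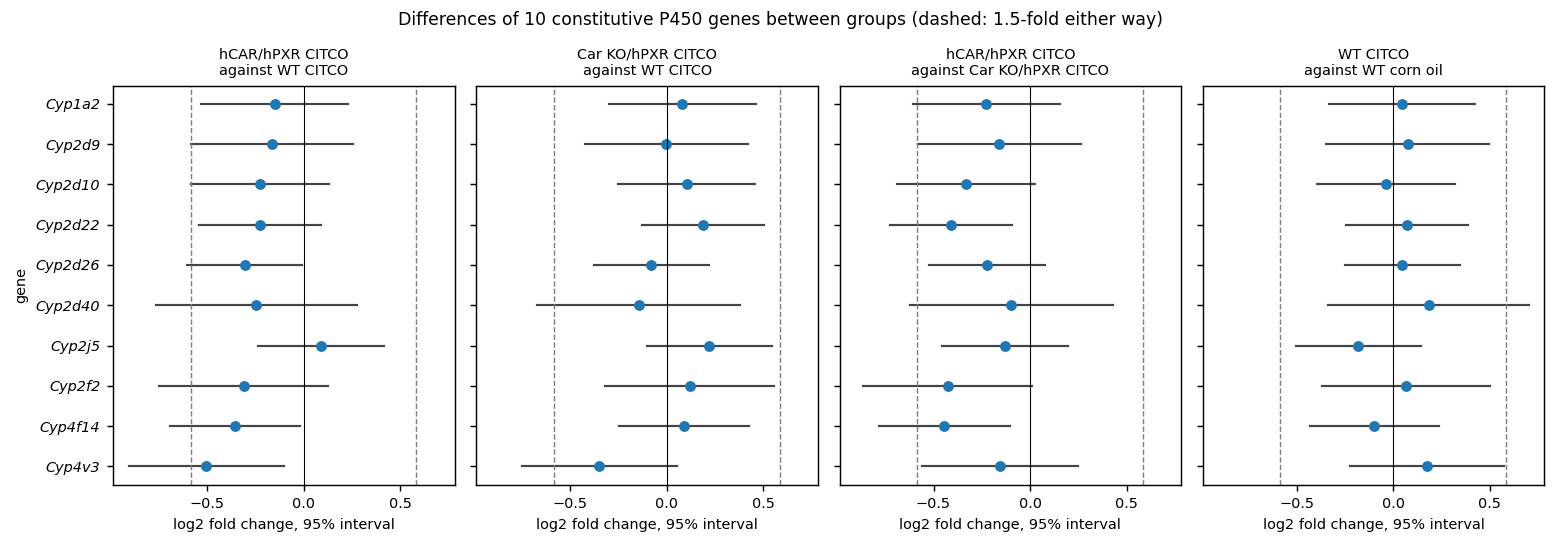
Each panel shows the log2 fold change (horizontal axis) of the 10 members (vertical axis) in 1 of the 4 comparisons, with 95% intervals as bars and dashed lines at 1.5-fold in either direction. In hCAR/hPXR mice against WT mice given CITCO, 9 of 10 points lie to the left of 0, and 0 members were called in any panel.

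The comparison of Car KO/hPXR mice with WT mice given CITCO sets livers without CAR and with human PXR against those with both mouse receptors. By edgeR 0 of 10 members were called, where 0.256% of the genes tested were. DESeq2 and limma called 0, and 0 members had an unadjusted p under 0.05 by any of these tools, against 9.30% of the genes tested by edgeR. Cyp4v3 had such a p in edgeR without WT CITCO replicate 3 and without Car KO/hPXR replicate 3. The groups overlapped for all 10 members, where 14.2% of the genes tested did not overlap. The estimate was higher in Car KO/hPXR mice for 6 members and lower for 4, with a median log2 fold change of 0.08. These counts changed with the libraries, to 4 higher and 6 lower with a median of -0.053 without Car KO/hPXR replicate 2, and to 7 higher with a median of 0.15 without replicate 1. Leaving out replicate 1 or 3 of WT CITCO gave medians of 0.041 or 0.037. Values lay between -0.35 (95% interval -0.75 to 0.05) for Cyp4v3 and 0.22 (-0.11 to 0.55) for Cyp2j5, and that of Cyp2d9 was -0.0024 (-0.42 to 0.42). Leaving out 1 library gave -0.50 to -0.16 for Cyp4v3 and 0.13 to 0.31 for Cyp2j5. The interval lay within 1.5-fold for 8 members and reached 1.68-fold at the widest.

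The comparison of hCAR/hPXR with Car KO/hPXR mice sets human CAR against no CAR, with human PXR and CITCO in both groups. By edgeR 0 of 10 members were called, where 0.582% of the genes tested were. DESeq2 and limma called 0, while unadjusted p-values under 0.05 were found for 2 members by edgeR, Cyp2d22 and Cyp4f14, for 4 by DESeq2 and for 3 by limma. Of all genes tested by edgeR, 10.6% had such a p. The groups did not overlap for 4 members, Cyp2d22, Cyp2d26, Cyp2f2 and Cyp4f14, all lower in hCAR/hPXR mice, where 15.1% of the genes tested did not overlap. All 10 members had a lower estimate in hCAR/hPXR mice, with a median log2 fold change of -0.23, against 0.01 for all genes tested. The hCAR/hPXR libraries are also those of the comparison with WT mice, so the directions in the 2 comparisons are not independent. Leaving out hCAR/hPXR replicate 3 left 9 of 10 lower and moved the median to -0.16, with Cyp2d40 then at 0.12. Without hCAR/hPXR replicate 2 the median was -0.35 with all 10 lower, and without Car KO/hPXR replicate 2 or 3 it was -0.20 or -0.25 with 9 lower.

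Cyp4f14 had the lowest log2 fold change in hCAR/hPXR against Car KO/hPXR mice, -0.44 (95% interval -0.78 to -0.10), with an adjusted p of 0.303 in edgeR. Without Car KO/hPXR replicate 2 it was at -0.27, Cyp2d22 was lower at -0.48, and Cyp2d22 alone had an unadjusted p under 0.05. For Cyp2d22 it was -0.41 (-0.73 to -0.09) with an adjusted p of 0.306, and for Cyp2d10 -0.33 (-0.69 to 0.03) with an adjusted p of 0.515. Values nearer 0 were -0.22 (-0.52 to 0.08) for Cyp2d26, -0.23 (-0.61 to 0.15) for Cyp1a2 and -0.10 (-0.62 to 0.43) for Cyp2d40. On leaving out 1 library, Cyp2d10 ranged from -0.52 to -0.17, Cyp2f2 from -0.54 to -0.22, Cyp4v3 from -0.33 to -0.0067, Cyp1a2 from -0.38 to -0.13 and Cyp2j5 from -0.20 to -0.047. The interval lay within 1.5-fold for 4 members and reached 1.82-fold at the widest.

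The comparison of CITCO with corn oil in WT mice is the one in these libraries that measures the treatment within a genotype. By edgeR 0 of 10 members were called, where 0.233% of the genes tested were. DESeq2 and limma called 0, and 0 members had an unadjusted p under 0.05 by any of these tools, against 9.13% of the genes tested by edgeR. The groups overlapped for all 10 members, where 14.7% of the genes tested did not overlap. The estimate was higher with CITCO for 7 members and lower for 3, with a median log2 fold change of 0.06. Without WT CITCO replicate 2 the members divided into 4 higher and 6 lower with a median of -0.0067, and without replicate 3 into 5 and 5 with -0.0039. The median was 0.097, 0.0039 and 0.0078 without corn oil replicates 1, 2 and 3. Values lay between -0.18 (95% interval -0.51 to 0.14) for Cyp2j5 and 0.18 (-0.34 to 0.70) for Cyp2d40. Leaving out 1 library gave -0.27 to -0.050 for Cyp2j5 and 0.015 to 0.40 for Cyp2d40. The interval lay within 1.5-fold for 9 members, and that of Cyp2d40 reached 1.63-fold.

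In 1 test over the 4 groups, edgeR called 0 of 10 members, where 1.42% of the genes tested were called. DESeq2 and limma called 0. At an unadjusted p under 0.05, Cyp4f14 was found by edgeR and limma, and 3 members by DESeq2, where 11.6% of the genes tested by edgeR had such a p. The count in edgeR was 0 with upper quartile scaling, with the replicate block and without corn oil replicate 1 or 2, WT CITCO replicate 1 or hCAR/hPXR replicate 1. It was 2, Cyp4f14 and Cyp4v3, without Car KO/hPXR replicate 3. In place of Cyp4f14, Cyp2d10 was found without hCAR/hPXR replicate 2 and Cyp4v3 with no filter. Adjusted p-values of the members in edgeR ran from 0.401 for Cyp4f14 to 0.949 for Cyp2d9. The lowest group mean was in hCAR/hPXR mice for 9 members. The highest was in Car KO/hPXR mice for 5, in WT mice given CITCO for 4 and in WT mice given corn oil for 1, Cyp4f14. The ratio of the highest to the lowest group mean ran from 1.12 for Cyp2d9 to 1.42 for Cyp4v3. Among the 40 intervals of 10 members and 4 comparisons, 26 lay within 1.5-fold.

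Spread between mice of a group was read as the within-group SD on the log2 CPM scale. Its median was 0.206 over the members, against 0.263 for the 4482 genes with a mean of at least 20 CPM. The members had means from 91.1 to 1476 CPM, and the genes were not matched on level. This SD was lowest for Cyp2d26, at 0.11, and highest for Cyp2d40, at 0.384. The lowest library was an hCAR/hPXR library for 7 members. It was replicate 3 for Cyp1a2, Cyp2d9, Cyp2d10 and Cyp2d40, and replicate 2 for Cyp2d22, Cyp2d26 and Cyp4f14. Replicate 3 had the smallest total, 1167027 counts. With counts thinned to the smallest library, 9 members were lower in hCAR/hPXR mice than in WT mice given CITCO (median log2 fold change -0.26). The part of depth in the low values of replicate 3 alone was not tested.

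Correlations between members were computed on log2 CPM over the 12 libraries, which share depth and scaling, and describe the libraries without a test. Of 45 pairs, 40 had a positive Pearson r, 10 had an r over 0.5, and the median was 0.257. After the mean of each group was taken off, 23 were positive, 8 were over 0.5 and the median was 0.0692. Cyp2d9 and Cyp2d10 had an r of 0.80 (n = 12), and 0.863 with group means removed. Cyp2d40, which has the same run of 19 bases, had an r of 0.17 with Cyp2d9 and 0.30 with Cyp2d10. The first 2 genes also share reads, and the part of that in their r was not tested. Cyp2d22 and Cyp2d26 had an r of 0.69, and 0.76 with group means removed, whereas Cyp2d22 and Cyp2d40 had -0.24 and -0.65. Cyp2j5 went with Cyp2f2 (0.679, then 0.794) and with Cyp1a2 (0.677, then 0.766). For Cyp2d26 and Cyp4f14, both lowest in hCAR/hPXR mice, r was 0.688 over the libraries and 0.316 with group means removed.

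**Figure D4:**
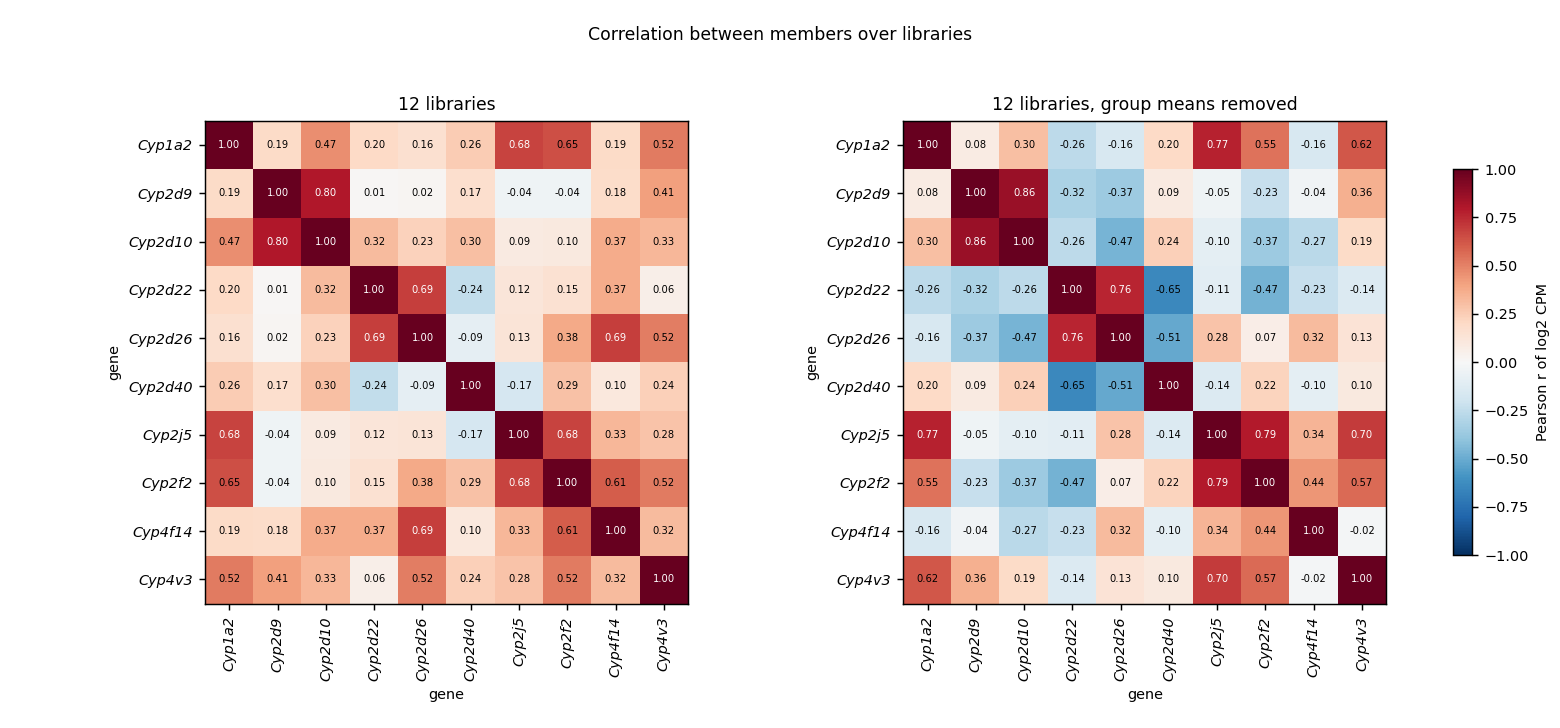
Both panels show Pearson r of log2 CPM (colour scale from -1 to 1) for every pair of the 10 members over 12 libraries, on the left as measured and on the right with group means removed. Cyp2d9 with Cyp2d10 stays high in both, at 0.80 and 0.863, while most other Cyp2d pairs do not.

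The genes most like each member in pattern were taken as the 3 with the highest r over the 12 libraries among the 4472 other genes with a mean of at least 20 CPM. With this many candidates and 12 points high values occur readily, and nothing on shared function is drawn from them. Cyp2d9 was nearest to Enpp4 and Amacr (both 0.90) and Stx17 (0.845), and Cyp2d10 to Adgrf5 (0.903), Amacr (0.894) and Tnks2 (0.891). Amacr was the gene that both had. Cyp2d22 was nearest to Chd9 (0.919), Slc10a1 and Rnf103 (both 0.902), Cyp2d26 to Cox5b (0.917), Klf9 (0.893) and 9030617O03Rik (0.888), and Cyp2d40 to Otud5 (0.946), Mup14 (0.856) and Mup7 (0.847). Cyp1a2 was nearest to Hmox2 (0.858), Rexo2 (0.845) and Ube4b (0.838), and Cyp4v3 to Prelp (0.898), Fgf1 (0.879) and Rexo2 (0.851). Rexo2 was thus common to Cyp1a2 and Cyp4v3. Cyp2j5 was nearest to Smarce1 (0.841), Pdha1 (0.83) and Hsd17b6 (0.829), Cyp2f2 to Pdcd5 (0.898), mt_Atp8 (0.876) and mt_Nd4 (0.855), and Cyp4f14 to Hsd3b7 (0.952), Dynll2 (0.934) and Tmem86b (0.883).

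Close relatives of the members were mostly at or near the floor. Of 22 other P450s of the same subfamilies, 21 were in the table and 3 were tested, of which edgeR, DESeq2 and limma each called 0 in the 4 comparisons. The count at an unadjusted p under 0.05 was 0 by edgeR and DESeq2, and limma had 1 in hCAR/hPXR against Car KO/hPXR mice. Between hCAR/hPXR mice and WT mice given CITCO the log2 fold change was -0.30 (95% interval -0.78 to 0.18) for Cyp2j6, a relative of Cyp2j5. That of Cyp2j6 ranged from -0.46 to -0.21 on leaving out 1 library and from -0.32 to -0.11 under the other alternatives. It was -0.37 (-0.83 to 0.08) for Cyp4f13 and -0.49 (-1.10 to 0.12) for Cyp4f15, relatives of Cyp4f14, and that of Cyp4f15 ranged from -0.81 to -0.27 on leaving out 1 library. Cyp2j9, which did not pass the filter, had 6, 7 and 3 counts with corn oil, 6, 3 and 2 in WT mice given CITCO, 11, 11 and 7 in hCAR/hPXR mice and 0, 0 and 4 in Car KO/hPXR mice.

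Lists of genes that share a zone, a regulator or a partner with members were read in the same fit by edgeR, for hCAR/hPXR mice against WT mice given CITCO. Of all genes tested there, 8.81% had an unadjusted p under 0.05 in edgeR, and the median log2 fold change was 0.01. The share was 10.6% in hCAR/hPXR against Car KO/hPXR mice. It was 9.30% in Car KO/hPXR mice against WT mice given CITCO, and 9.13% for CITCO against corn oil. Among 13 tested genes of 15 pericentral ones, Cyp1a2 among them, 0 were called higher and 1 lower, Aldh3a2, by each of the 3 tools. By edgeR 4 had an unadjusted p under 0.05, 10 had a lower estimate, and the median log2 fold change was -0.15. The call of Aldh3a2 was lost without replicate 1 or 3 of WT CITCO or replicate 3 of hCAR/hPXR. Among 15 periportal genes with Cyp2f2, 0 were called by any of the 3 tools, 3 had an unadjusted p under 0.05, and the median was 0.10. Apoa4 of this list was called lower in hCAR/hPXR against Car KO/hPXR mice by the 3 tools, at a log2 fold change of -1.40, and under all 16 alternatives. The list named male-biased held Cyp2d9 and also genes of the growth hormone pathway, such as Igf1. Of its 21 genes, 0 were called by edgeR and limma and 1, Igf1, by DESeq2. In edgeR 6 had an unadjusted p under 0.05, and the median was -0.29. In hCAR/hPXR against Car KO/hPXR mice this list had 0 calls by the 3 tools, a median of 0.20 and 9 at such a p. In Car KO/hPXR mice against WT mice given CITCO its median was -0.29, with 5 at such a p and 3 called lower by DESeq2 alone. For CITCO against corn oil in WT mice its median was 0.07, with 3 at such a p and 1 called lower by DESeq2 and limma. The 12 female-biased genes included 1 that was tested, Acot3, which had an unadjusted p under 0.05 but was called by none of the tools. Of 15 P450 electron donors and heme genes, 0 were called by any of the 3 tools, 1 had an unadjusted p under 0.05, and the median was -0.12. Alas1 of this list was called higher with CITCO than with corn oil in WT mice by the 3 tools, at a log2 fold change of 1.73. Its call was lost without WT CITCO replicate 1, without corn oil replicate 2 or 3 and with only the 6 libraries compared. Of 22 hepatocyte transcription factors 21 were tested. Prox1 was called higher, Foxa2, Onecut1, Nr1i2 and Nr1i3 lower, and the calls of Foxa2 and Prox1 were lost without WT CITCO replicate 1. Nr1i2 and Nr1i3 are the mouse genes replaced in hCAR/hPXR mice, so their lower counts were set by the genotype. Foxa2 and Onecut1 were also called higher with CITCO than with corn oil in WT mice by the 3 tools, at log2 fold changes of 1.12 and 3.17. The call of Foxa2 there was lost without replicate 1 or 2 of WT CITCO, without any 1 of the corn oil libraries and with only the 6 libraries compared. In hCAR/hPXR against Car KO/hPXR mice the 3 tools called Foxa2 and Dbp lower, at -1.10 and -0.96. Both calls were lost without replicate 1 or 3 of either group, that of Foxa2 also without hCAR/hPXR replicate 2 and that of Dbp with only the 6 libraries compared. DESeq2 alone called 1 more factor lower in that comparison, Dbp lower in hCAR/hPXR mice than in WT mice given CITCO, and Prox1 lower with CITCO than with corn oil. Onecut1 was called lower by DESeq2 and limma in Car KO/hPXR mice than in WT mice given CITCO.

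**Figure D5:**
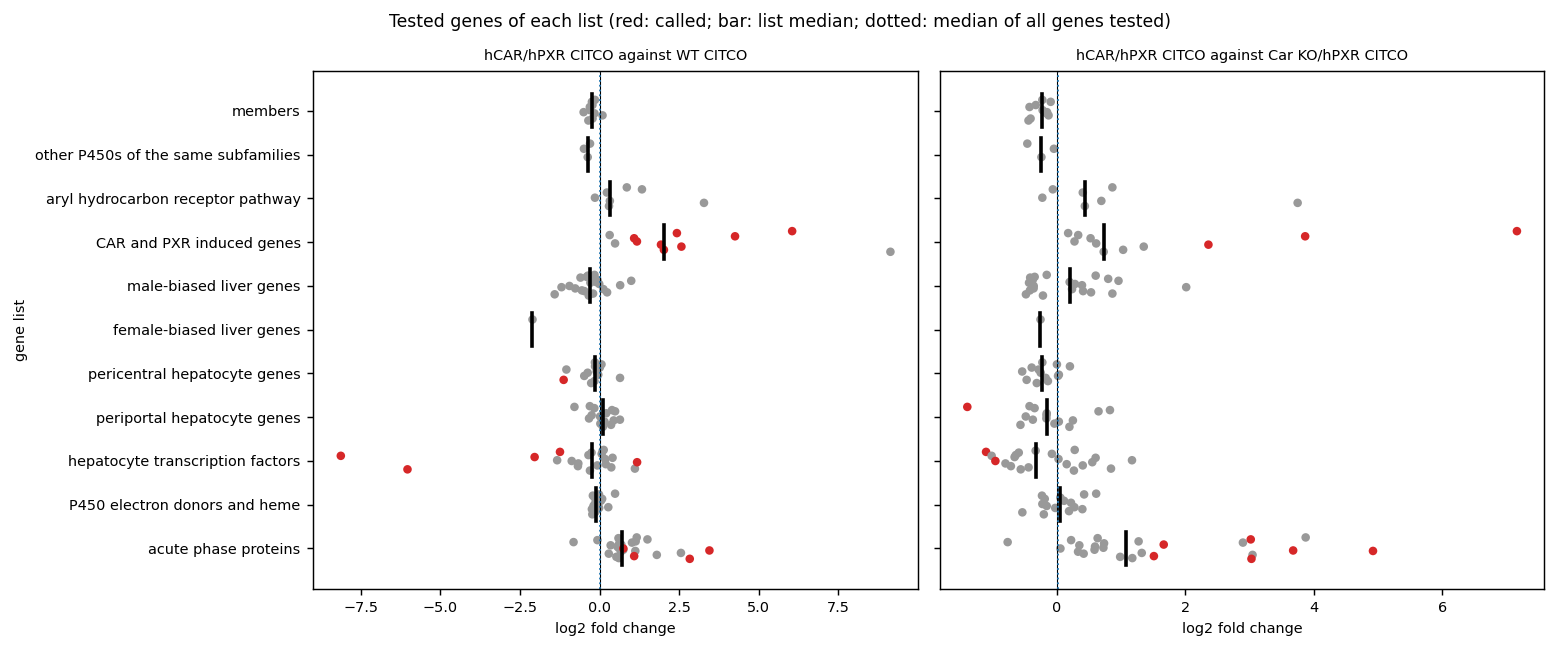
Each point is the log2 fold change (horizontal axis) of a tested gene of the list named on the vertical axis, red where called, with a bar at the list median and a dotted line at the median of all genes tested, for 2 of the comparisons. The members lie close to 0 with a median of -0.24 in hCAR/hPXR mice against WT mice given CITCO. Genes listed as induced through CAR and PXR have a median of 2.02 there. The point at 9.13 is Ugt1a1, which had 0 counts in every library of WT mice given CITCO, so that its fitted value depends on the prior count. Ugt1a1 had 0, 79 and 115 counts in hCAR/hPXR mice, 267, 0 and 0 with corn oil and 0, 0 and 103 in Car KO/hPXR mice.

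Acute phase genes and neutrophil markers were read beside the members. Of 24 acute phase genes, 22 had a higher estimate and 4 were called higher in hCAR/hPXR mice than in WT mice given CITCO by edgeR, Saa4, Serpina3m, Mt1 and Mt2, with a median log2 fold change of 0.71. DESeq2 called 7 and limma 3, and 18 had an unadjusted p under 0.05 in edgeR, against 8.81% of the genes tested. Of these 4 calls, 0 were kept without replicate 1 or 2 of WT CITCO or replicate 1 of hCAR/hPXR, 1 without WT CITCO replicate 3 or hCAR/hPXR replicate 3, and 2 without hCAR/hPXR replicate 2. The call of Saa4 was also lost with RLE size factors, a filter of at least 10 CPM in at least 3 libraries and thinned counts. With only the 6 libraries compared, the calls of Saa4 and Serpina3m were lost. In hCAR/hPXR against Car KO/hPXR mice, where all 10 members had a lower estimate, 23 of the 24 genes were higher, with a median of 1.08 and 18 at an unadjusted p under 0.05. There edgeR called 6 higher, Saa2, Saa4, Orm2, Hp, Mt1 and Mt2, DESeq2 11 and limma 5. Of these 6 calls, 0 were kept without Car KO/hPXR replicate 3, 2 without its replicate 1, and 3 without its replicate 2 or without hCAR/hPXR replicate 1 or 3. Between Car KO/hPXR mice and WT mice given CITCO, where 6 members were higher, 20 of the 24 were lower, with a median of -0.17. In that comparison edgeR and limma called 0, DESeq2 called 1 higher, Serpina3m, and 2 lower, Saa2 and Hp, and 6 had an unadjusted p under 0.05 in edgeR. These comparisons share libraries. With CITCO against corn oil in WT mice, where 7 members had a higher estimate, 17 of the 24 genes were also higher, with a median of 0.38. There edgeR and DESeq2 called Saa1 and Saa2 higher and limma called 0, and 9, 9 and 8 had an unadjusted p under 0.05. Both calls were lost without replicate 1 or 2 of WT CITCO and without any 1 of the corn oil libraries. That of Saa1 was also lost with the filter of at least 10 CPM in at least 3 libraries and with only the 6 libraries compared. All 5 neutrophil markers had a count in some library, 2 were tested, and S100a8 was the most abundant. Their summed level was 3.58, 6.35 and 5.43 CPM with corn oil, 9.73, 8.30 and 2.81 in WT mice given CITCO, 33.7, 34.1 and 49.2 in hCAR/hPXR mice and 8.26, 10.9 and 5.75 in Car KO/hPXR mice. The hCAR/hPXR libraries were above all others, and S100a8 was called higher against WT mice given CITCO, except by DESeq2 and without WT CITCO replicate 3 or hCAR/hPXR replicate 2 or 3. It was also called higher than in Car KO/hPXR mice, except by DESeq2, in thinned counts, without any 1 of the Car KO/hPXR libraries and without hCAR/hPXR replicate 2 or 3. Whether these markers had a part in the lower values of Cyp2d22, Cyp2d26, Cyp4f14 and Cyp4v3 was not tested.

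Other cell types were read the same way, as summed CPM in hCAR/hPXR mice and in WT mice given CITCO. The 9 Kupffer cell markers were at 499 ± 70.5 (SD, n = 3) and 435 ± 95.3, the 7 endothelial markers at 209 ± 17.7 and 234 ± 22.3, and the 7 stellate cell markers at 291 ± 21 and 309 ± 60.8. The 6 cholangiocyte markers were at 18.3 ± 1.63 and 16.4 ± 4.98, the 6 red blood cell markers at 2022 ± 165 and 3010 ± 1000, and the 7 T, B and natural killer cell markers at 11.2 ± 1.73 and 11.6 ± 3.94. By edgeR, DESeq2 and limma 0 of the tested markers of these lists and of the hepatocyte list were called between these groups. At an unadjusted p under 0.05, edgeR had 2 hepatocyte, 1 Kupffer cell and 3 red blood cell markers, DESeq2 had 3, 0 and 3, and limma 2, 0 and 3. Kupffer cell markers were at 436 to 575 CPM in hCAR/hPXR and 355 to 400 in Car KO/hPXR libraries. Cholangiocyte markers were at 16.78 to 20.02 and 20.04 to 24.78. Between these groups all 6 red blood cell markers were lower in hCAR/hPXR mice, with a median log2 fold change of -0.40. DESeq2 called 1 hepatocyte marker higher there, and edgeR and limma called 0.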

How the data were processed

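Liver RNA of 12 mice was read as 3' sequencing libraries. The authors deposited expected counts for each gene, from RSEM 1.3 on STAR 2.5.2 alignments to GRCm38, and values on a log2 scale from the variance-stabilising transformation of DESeq2. Counts were rounded and fitted by edgeR 4.0.16 in R 4.3.3 (filterByExpr, TMM, quasi-likelihood F test, 1 mean per group, Benjamini-Hochberg adjustment over 8594 genes). A call needed an adjusted p under 0.05 and a fold change over 1.5. DESeq2 1.42.0 was run on the counts and limma 3.58.1 on the log2 values. Other size factors, other filters, thinned counts, a replicate block, fits of the compared groups and leaving out each library were also tried. The fit was tested on simulated data. Floors (3 counts) cover counting error only, while p-values and intervals measure the spread between mice. The rule for names was set beforehand. It took all members and, from the lists, genes called (here by edgeR), the 3 most abundant and relatives of a member. Most of the abundant ones were left unnamed for length. Igf1, Ugt1a1 and Gsta1 were named outside this rule, since edgeR did not call them. Members and lists were chosen with earlier results of these data known. The lists were other P450s of the same subfamilies, aryl hydrocarbon receptor pathway, CAR and PXR induced, male-biased, female-biased, pericentral, periportal, hepatocyte transcription factors, electron donors and heme, acute phase proteins, and markers of 8 cell types.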

Additional observations from a re-analysis of the deposited data

How the results depend on the processing

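Under 16 alternatives in each comparison, 0 members were called by edgeR, DESeq2 or limma, and under 20 alternatives 0 differed among the 4 groups. The lowest adjusted p of a member under any alternative was 0.159, in DESeq2, and at an unadjusted p under 0.05 that tool had at most 4 members in a comparison. Of 640 values of members under an alternative, 617 kept their direction. The other 23 had the opposite sign in 14 combinations of member and comparison, all on leaving out 1 library, and the largest log2 fold change that turned was 0.17. The summed Cyp2d value could not be computed from the transformed values.

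Leaving out 1 library gave these ranges of log2 fold change where the sign turned. For Cyp1a2 they were -0.30 to 0.019 in hCAR/hPXR against WT CITCO, -0.0081 to 0.26 in Car KO/hPXR against WT CITCO and -0.13 to 0.17 in WT CITCO against corn oil. In Car KO/hPXR against WT CITCO they were -0.17 to 0.16 for Cyp2d9, -0.37 to 0.021 for Cyp2d40, -0.10 to 0.36 for Cyp2f2, -0.084 to 0.17 for Cyp4f14 and -0.075 to 0.11 for summed Cyp2d. In hCAR/hPXR against Car KO/hPXR they were -0.34 to 0.0047 for Cyp2d9 and -0.36 to 0.12 for Cyp2d40. In WT CITCO against corn oil they were -0.020 to 0.14 for Cyp2d9, -0.10 to 0.0079 for Cyp2d10, -0.015 to 0.18 for Cyp2d22, -0.17 to 0.24 for Cyp2f2, -0.012 to 0.31 for Cyp4v3 and -0.016 to 0.087 for summed Cyp2d. The cause was not tested.

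The number of all genes called moved more. It was 35, 22, 50 and 20 in hCAR/hPXR against WT CITCO, Car KO/hPXR against WT CITCO, hCAR/hPXR against Car KO/hPXR and WT CITCO against corn oil. In this order it was 63, 69, 96 and 41 by DESeq2 on 20059 genes, and 184, 227, 233 and 179 with no filter on low counts. With only the 6 libraries compared it was 40 in Car KO/hPXR against WT CITCO. Leaving out 1 library gave 17 to 32, 5 to 58, 10 to 58 and 6 to 54. In the comparison of hCAR/hPXR with WT CITCO it was 17 and 23 without WT CITCO replicates 1 and 2, and 20 without hCAR/hPXR replicate 3. In Car KO/hPXR against WT CITCO it was 5, 6 and 58 without WT CITCO replicates 1, 2 and 3, and 14 and 10 without Car KO/hPXR replicates 1 and 3. In hCAR/hPXR against Car KO/hPXR it was 23 and 19 without hCAR/hPXR replicates 1 and 3, and 19 and 10 without Car KO/hPXR replicates 1 and 3. In WT CITCO against corn oil it was 7, 7 and 54 without WT CITCO replicates 1, 2 and 3, and 7 and 6 without corn oil replicates 2 and 3. The cause was not tested. With the replicate number as a block, 33, 24, 53 and 20 genes and 0 members were called; deviations of libraries with the same number had correlations of -0.1 to 0.142, so the numbers were not taken as pairs.

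With 3 mice a group, intervals of members reached up to 1.87-fold, so a difference of up to that size may be present. Cyp1a1 and most other close relatives lay near the floor of 1.34 to 2.5 CPM and were not tested. Values of single Cyp2d genes depend on how reads were divided between near copies. The corn oil libraries were from WT mice, so treatment and genotype cannot be told apart in the humanised mice. Tissue was bulk liver of 1 sex at 1 time, and RNA libraries hold no measure of protein or enzyme activity.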
